A study of Mus musculus with 12 samples.

Results

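The mitochondrial ribosomal protein genes are the nuclear genes for the protein subunits of the mitochondrial ribosome. They were chosen by symbol, as every mouse gene named Mrpl or Mrps followed by a digit, with pseudogenes left out. Of 83 matching symbols, 5 were pseudogenes, and all 78 others were kept by the expression filter (filterByExpr in edgeR, which asks for a minimum count in enough libraries), out of 13167 genes kept in all. By known structure, 51 of the 78 products belong to the large subunit and 26 to the small subunit. The remaining gene, Mrps36, carries the name but encodes a component of the oxoglutarate dehydrogenase complex.

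RNA was sequenced from CD8 T cells of OT-I/Cas9 mice, in 6 groups of 2 libraries. All cells carry the OT-I transgenic T cell receptor, express Cas9, were activated earlier on antibodies to CD3 and CD28, received guide RNAs by retrovirus, and were selected with puromycin and kept in cytokines. KO cells had Tmed10 guides and vehicle, and are an edited pool, not a clone. AGN cells had control guides and 100 µM AGN192403, a ligand of imidazoline receptors, for 24 h. Ctrl cells had control guides and water. Each kind was either activated for 24 h on plate-bound antibody to CD3 at 2.5 µg/mL or left resting, which here means not stimulated again. AGN cells and KO cells were therefore both compared with the same Ctrl libraries. No label says whether replicates were separate cultures or mice, so the p-values may cover technical spread only.

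Libraries held 9089350 to 16481840 counts (median 12192220.5). Tmed10 had 55.9 and 58.3 CPM (counts relative to TMM-scaled library size) in activated KO cells against 128 and 125 CPM in activated Ctrl cells, and 61.5 and 65.1 CPM in resting KO cells against 116 and 117 CPM in resting Ctrl cells, so its transcript was lower but present. All 8 CD8 T cell markers passed the filter and summed to 2451 to 3964 CPM per library. The 3 erythroid, 3 mast cell and 2 NK cell markers summed to at most 0.300, 1.00 and 0.799 CPM, Cd4 was at 0.378 to 1.29 CPM, the 5 myeloid markers summed to 0.189 to 2.65 CPM, and the 4 B cell markers to 0.944 to 8.08 CPM. The B cell sum was 0.944 to 2.37 CPM in activated and 4.79 to 8.08 CPM in resting libraries, the myeloid sum 0.189 to 0.495 CPM in activated and 1.502 to 2.65 CPM in resting libraries, and the CD8 T cell sum 2451 to 2731 CPM in activated and 3614 to 3964 CPM in resting libraries. Their part in the activation changes below was not tested. Replicate 1 of activated Ctrl, activated AGN and resting Ctrl cells stood apart: gene models of the annotation class TEC, which await experimental evidence, held 0.0596% to 0.0746% of their counts, against 0.0278% to 0.0470% in the other 9 libraries. Counts without these 3 libraries are given beside the results for activation and for AGN192403.

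Mitochondrial ribosomes translate the few mRNAs encoded by mitochondrial DNA, all of which give subunits of the respiratory chain or ATP synthase. Their proteins are made in the cytosol and imported, and their RNAs come from the mitochondrial genome, so a working particle needs both genomes. Many subunits have bacterial homologues, while others arose in mitochondria. Activated T cells grow, divide and enlarge their mitochondria, and mitochondrial translation is known to support their proliferation and effector function.

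The promoters of 4 named genes with few annotated exon bases there are shown, since their calls differ: Mrpl12, Mrps25 and Mrps18a rose on activation in all 3 conditions, of which Mrpl12 and Mrps25 were lower with AGN192403 in activated cells and Mrps18a was not called, and Mrpl58 was called higher in no condition. Each is the 250 bases before the RefSeq transcription start (GRCm38.p6), 5′ to 3′ on the gene's strand, of which 0 to 24 bases lie in annotated exons. Capitals mark CCGGAAG, the core bound by ETS factors such as GABP.
Mrpl12 (chr11:120484387-120484636, plus strand): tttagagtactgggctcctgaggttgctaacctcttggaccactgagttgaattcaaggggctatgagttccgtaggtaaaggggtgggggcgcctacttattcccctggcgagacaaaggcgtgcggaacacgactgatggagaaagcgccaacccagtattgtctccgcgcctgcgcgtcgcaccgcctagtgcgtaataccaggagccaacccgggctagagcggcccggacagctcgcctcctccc
Mrps25 (chr6:92184024-92184273, minus strand): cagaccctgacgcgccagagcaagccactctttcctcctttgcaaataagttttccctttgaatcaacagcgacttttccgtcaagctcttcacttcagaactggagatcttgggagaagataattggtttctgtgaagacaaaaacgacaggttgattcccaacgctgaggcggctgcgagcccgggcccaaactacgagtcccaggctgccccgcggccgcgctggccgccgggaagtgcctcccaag
Mrps18a (chr17:46110754-46111003, plus strand): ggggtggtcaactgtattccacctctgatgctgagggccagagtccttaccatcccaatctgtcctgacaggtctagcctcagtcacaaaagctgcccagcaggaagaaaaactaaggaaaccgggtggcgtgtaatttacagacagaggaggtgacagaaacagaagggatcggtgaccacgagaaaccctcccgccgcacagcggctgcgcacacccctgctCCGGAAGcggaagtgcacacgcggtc
Mrpl58 (chr11:115403502-115403751, plus strand): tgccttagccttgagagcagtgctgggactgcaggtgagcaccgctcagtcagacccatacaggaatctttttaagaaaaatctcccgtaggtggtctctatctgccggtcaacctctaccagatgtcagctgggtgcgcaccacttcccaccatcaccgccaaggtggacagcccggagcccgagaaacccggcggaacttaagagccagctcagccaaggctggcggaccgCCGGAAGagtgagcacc

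The match began 26 bases before the start in Mrps18a and 17 bases before it in Mrpl58, where a further match spans the start from 2 bases before it. RefSeq promoter windows, 250 bases before to 50 after each start, were found for 69 of the 78 genes (75 windows). The ETS letters CCGGAAG, on either strand, were in 34.7% of these windows, against 8.86% of all 32851 windows. The letters AAGATGGC (YY1) were in 16.0% against 2.75%, GCATGCGC (NRF1) in 10.7% against 2.71%, and CACGTG (E-box) in 9.33% against 7.15%. Matches were exact, some genes have several windows, and overlaps between motifs were not removed. The 32851 windows were not limited to genes kept by the expression filter, while all 78 genes were kept by it. At least 1 of the 4 motifs was in a window of 40 genes.

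**Figure D1:**
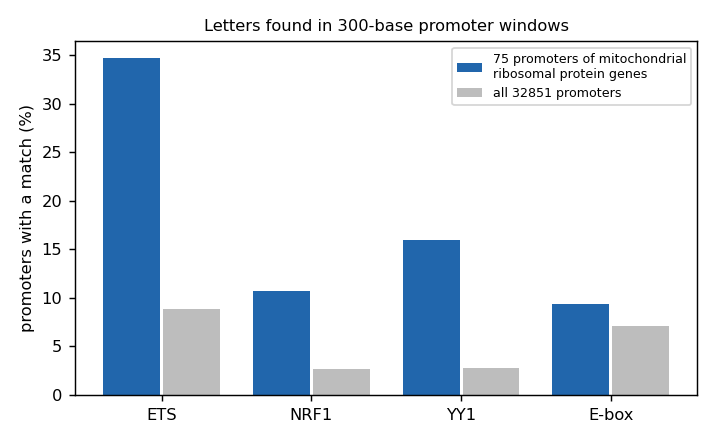
Percent of promoter windows (250 bases before to 50 after the start) that hold each of 4 letter patterns on either strand, for the 75 windows of mitochondrial ribosomal protein genes (left bars) and all 32851 windows (right bars). The ETS letters were in 34.7% of the genes' windows and 8.86% of all windows, and the E-box bars are the closest pair. The right bars were not limited to genes kept by the expression filter.

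Genes with and without a match were also set side by side. In Ctrl cells, the median log2 fold change on activation was 0.37 in the 26 genes with the ETS letters and 0.68 in the 43 without, 0.45 in the 8 genes with the NRF1 letters and 0.59 in the 61 without, 0.74 in the 12 genes with the YY1 letters and 0.51 in the 57 without, and 0.80 in the 5 genes with the E-box letters and 0.53 in the 64 without. For AGN over Ctrl in activated cells, the medians with and without a match were −0.08 and −0.11 for ETS, −0.13 and −0.10 for NRF1, −0.12 and −0.10 for YY1, and −0.16 and −0.10 for the E-box. These medians are a description of small lists and were not tested.

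The 78 genes are spread over 17 chromosomes, with 11 on chromosome 11 and 8 on chromosome 17. Levels between genes were compared as CPM per kb of annotated exon, averaged over the 12 libraries. The length joins all annotated exons of a gene, not those of the transcripts expressed, so the order depends in part on the annotation. Mrpl12 averaged 77.4 CPM over 1532 bases and ranked 1, and Mrpl15 averaged 76.3 CPM over 8487 bases and ranked 54. The highest were Mrpl12 (50.5), which forms the stalk where translation factors bind, Mrpl18 (46.5), part of the central protuberance, Mrpl20 (45.9), and Mrpl10 (42.3), the base of the stalk. The lowest were Mrpl23 (1.32), Mrpl53 (1.32) and Mrps36 (2.72). Mrpl53 rests on 154 counts in all 12 libraries and shares 695 exon bases on the same strand with Gm42688, so its level is uncertain. The exons of 33 of the 78 genes overlap another annotated gene, 28 on the opposite strand and 8 on the same strand, and the strand setting of the counting is not given in the sources used here.

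Summed over the 78 genes, the level was 3568 and 3586 CPM in activated KO cells against 2479 and 2486 CPM in resting KO cells. It was 3232 and 3399 CPM in activated AGN cells against 2536 and 2581 CPM in resting AGN cells, and 3535 and 3653 CPM in activated Ctrl cells against 2402 and 2441 CPM in resting Ctrl cells. Every activated library was above every resting library. The activated over resting ratio of the mean sums was 1.44 in KO, 1.30 in AGN and 1.48 in Ctrl cells. Large subunit genes (1.43, 1.29 and 1.48) and small subunit genes (1.47, 1.32 and 1.4999) had similar ratios. By contrast, the 81 cytosolic ribosomal protein genes, which serve translation outside mitochondria, had ratios of 1.02, 1.01 and 0.990. Sums are dominated by abundant genes, and in bulk RNA a change in the cells' makeup and a change per cell cannot be told apart.

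**Figure D2:**
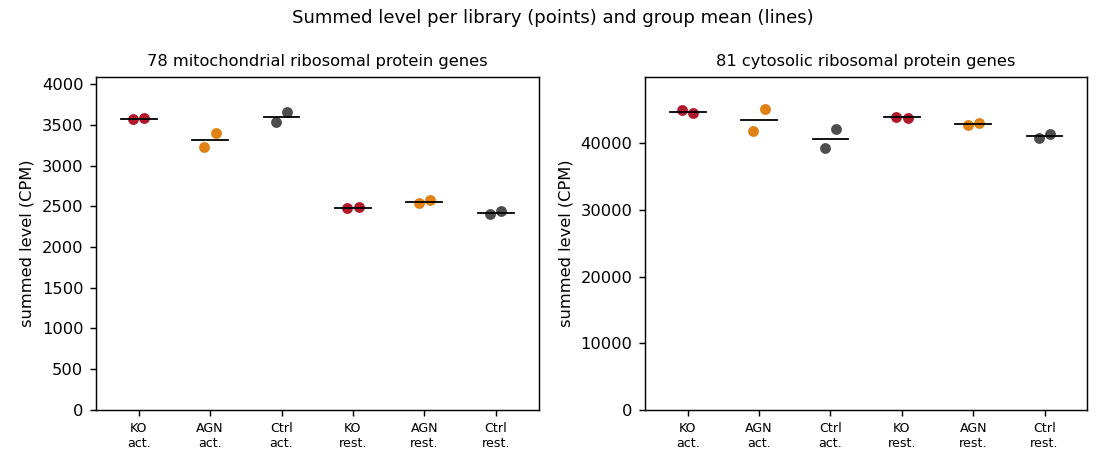
Summed CPM of the 78 mitochondrial ribosomal protein genes (left) and of 81 cytosolic ribosomal protein genes (right) in each of 12 libraries (points), with the mean of each group of 2 (lines). On the left the activated libraries lie between 3232 and 3653 CPM and the resting ones between 2402 and 2581 CPM, while on the right the ranges of activated and resting libraries overlap.

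Activation was compared with rest in each condition, to ask how the gene set responded to renewed T cell receptor stimulation. In Ctrl cells 61 of 78 genes rose and 2 fell (edgeR quasi-likelihood test, adjusted p below 0.05 over all genes), where 36.4% of all genes tested rose and 37.4% fell. The median log2 fold change was 0.58 over the 78 genes and −0.02 over all genes. In KO cells 59 rose and 3 fell, against 37.2% and 36.5% of all genes, with a median of 0.57. In AGN cells 53 rose and 7 fell, against 33.9% and 36.1% of all genes, with a median of 0.44. The 3 comparisons share no library, and 50 of the 78 genes rose in all 3. The share of all genes that rose in all 3 was not counted, and can be at most the 33.9% of AGN cells. Without the 3 libraries that stood apart, 60 genes rose and 3 fell in KO cells, 54 rose and 5 fell in AGN cells, and 60 rose and 1 fell in Ctrl cells. Among the 45 genes with no exon overlap, 38 rose in KO cells, 33 in AGN cells and 37 in Ctrl cells. Genes with bacterial homologues (35 of 45 in Ctrl cells) and those classed as mitochondria-specific (26 of 32, Mrps18a and Mrps18b included) both mostly rose, with medians of 0.59 and 0.56.

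Mrps6 (chromosome 16, 92058270 to 92112227), whose product sits on the platform of the small subunit, changed most. It was at 59.8 and 63.7 CPM in activated KO cells against 17.2 and 13.6 CPM in resting KO cells. In AGN cells it was at 51.3 and 61.4 CPM when activated against 15.6 and 15.4 CPM at rest, and in Ctrl cells at 54.4 and 62.6 CPM against 16.5 and 17.0 CPM. All activated values were at least 51.3 CPM and all resting ones at most 17.2 CPM, without overlap. Of all genes, 43.2%, 40.4% and 42.0% were higher without overlap on activation in KO, AGN and Ctrl cells. The log2 fold changes of Mrps6 were 1.95 ± 0.10, 1.87 ± 0.10 and 1.80 ± 0.10 (SE) in KO, AGN and Ctrl cells. Mrps6 shares 305 exon bases on the same strand with the gene model Gm49711 and 159 with Slc5a3, a myo-inositol transporter gene, which rose by log2 2.598, 3.011 and 2.606 in the same comparisons. How far reads of these genes entered the Mrps6 count was not tested.

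Mrpl38 (chromosome 11, 116131817 to 116138868), a mitochondria-specific protein of the central protuberance, was at 52.1 and 54.1 CPM in activated KO cells against 18.8 and 19.6 CPM in resting KO cells. It was at 45.6 and 49.3 CPM in activated AGN cells against 19.2 and 17.0 CPM in resting AGN cells, and at 53.3 and 56.5 CPM in activated Ctrl cells against 16.1 and 17.1 CPM in resting Ctrl cells. The groups did not overlap, with log2 fold changes of 1.47, 1.41 and 1.72 (SE 0.08 in each). Mrps10, in the head of the small subunit, rose by log2 1.43, 1.18 and 1.41 in KO, AGN and Ctrl cells. At least 2-fold rises were called for 12 of the 78 genes in KO cells, 5 in AGN cells and 14 in Ctrl cells, against 12.1%, 9.85% and 12.2% of all genes. In Ctrl cells these included the tunnel exit protein gene Mrpl22 (1.19), the L1 stalk gene Mrpl1 (1.24), Mrps27 (1.21), Mrpl47 (1.26) and Mrps28 (1.28).

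**Figure D3:**
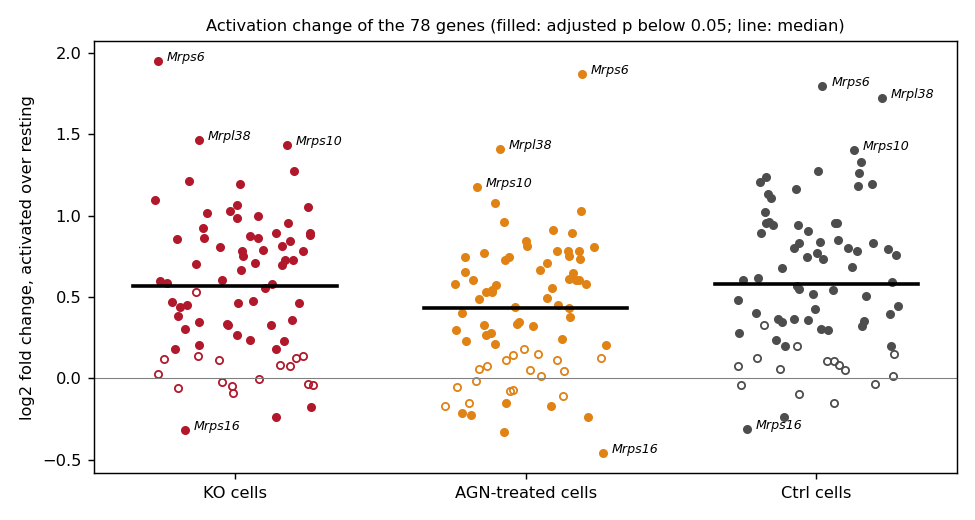
Log2 fold change, activated over resting, of each of the 78 genes in KO, AGN-treated and Ctrl cells. Filled points had an adjusted p below 0.05, open points did not, and black lines are the medians (0.57, 0.44 and 0.58). Mrps6 is highest in each condition and Mrps16 lowest.

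Few genes fell on activation. Mrps16 (chromosome 14, 20389304 to 20393634), a bacterial S16 homologue of the small subunit body, was the only gene called lower in all 3 conditions. It was at 51.3 and 50.3 CPM in activated KO cells against 64.0 and 62.4 CPM in resting KO cells, at 45.2 and 51.7 CPM in activated AGN cells against 64.5 and 69.2 CPM in resting AGN cells, and at 44.2 and 49.5 CPM in activated Ctrl cells against 60.2 and 56.3 CPM in resting Ctrl cells. The activated and resting libraries did not overlap. Of all genes, 42.4%, 42.7% and 43.7% were lower without overlap on activation in KO, AGN and Ctrl cells. The log2 fold changes of Mrps16 were −0.32 ± 0.07, −0.46 ± 0.07 and −0.31 ± 0.07 (SE). In Ctrl cells this call was lost when the 3 libraries that stood apart were left out. Mrpl4, whose product lines the exit tunnel, fell in KO cells (−0.18) and Ctrl cells (−0.24), with −0.01 in AGN cells (adjusted p = 0.849). Mrpl58, a peptidyl-tRNA hydrolase that rescues stalled ribosomes, fell in KO (−0.24) and AGN cells (−0.33), with −0.15 in Ctrl cells (adjusted p = 0.0626). In AGN cells Mrpl10 (−0.24), Mrpl18 (−0.23), Mrpl30, Mrpl33 and Mrpl9 were also called lower. Of these, Mrpl30 was called higher in KO cells and Mrpl18 in Ctrl cells. Neither these rises nor the falls of Mrpl30 and Mrpl18 in AGN cells held under all 19 alternatives. Among the genes named in this paragraph, only Mrpl18 had a called difference between its AGN and Ctrl responses, and none between KO and Ctrl responses. A further 6 genes (Mrpl14, Mrpl27, Mrpl54, Mrps21, Mrps23 and Mrps34) were not called in any of the 3 conditions.

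The 3 Mrps18 genes are paralogues related to bacterial S18, of which only Mrps18c is counted here among the bacterial homologues. The product of Mrps18a is built into the large subunit and those of Mrps18b and Mrps18c into the small subunit. Mrps18b (chromosome 17, 35910379 to 35916389) was at 52.4 and 53.5 CPM in activated KO cells against 20.9 and 23.3 CPM in resting KO cells, at 41.7 and 48.2 CPM in activated AGN cells against 26.4 and 26.2 CPM in resting AGN cells, and at 47.7 and 52.3 CPM in activated Ctrl cells against 20.98 and 19.0 CPM in resting Ctrl cells. Its log2 fold changes were 1.28, 0.78 and 1.33. Mrps18a rose by 0.73, 0.65 and 0.74 in the same conditions. Mrps18c rose only in Ctrl cells by the test (0.30), with values of 0.13 in KO cells (adjusted p = 0.163) and 0.01 in AGN cells (adjusted p = 0.899), and its response did not pass the test of a difference from Ctrl cells in KO (adjusted p = 0.494) or AGN cells (adjusted p = 0.0811).

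Other genes set for their known roles also rose. Mrpl12 (chromosome 11, 120484613 to 120489065) was at 103 and 110 CPM in activated KO cells against 52.5 and 49.0 CPM in resting KO cells, and at 113 and 117 CPM in activated Ctrl cells against 50.8 and 49.6 CPM in resting Ctrl cells, for log2 fold changes of 1.06 and 1.19 (SE 0.06 each). Mrpl11, at the base of the stalk, rose by 0.86, 0.56 and 0.95 in KO, AGN and Ctrl cells, Mrps30 by 0.73, 0.54 and 0.61, Mrpl44, which has a ribonuclease III fold, by 0.48, 0.27 and 0.51, and Mrpl57 by 0.27, 0.33 and 0.35. Mrps12, a homologue of the decoding centre protein S12, rose by 0.82, 1.08 and 0.68. Mrps36, which is no ribosomal protein and had only 501 counts, rose in KO cells (0.60, adjusted p = 0.0443), a call lost under DESeq2, with library totals and without any 1 of the KO or resting AGN libraries, with −0.08 in AGN cells (adjusted p = 0.806) and 0.33 in Ctrl cells (adjusted p = 0.245).

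**Figure D4:**
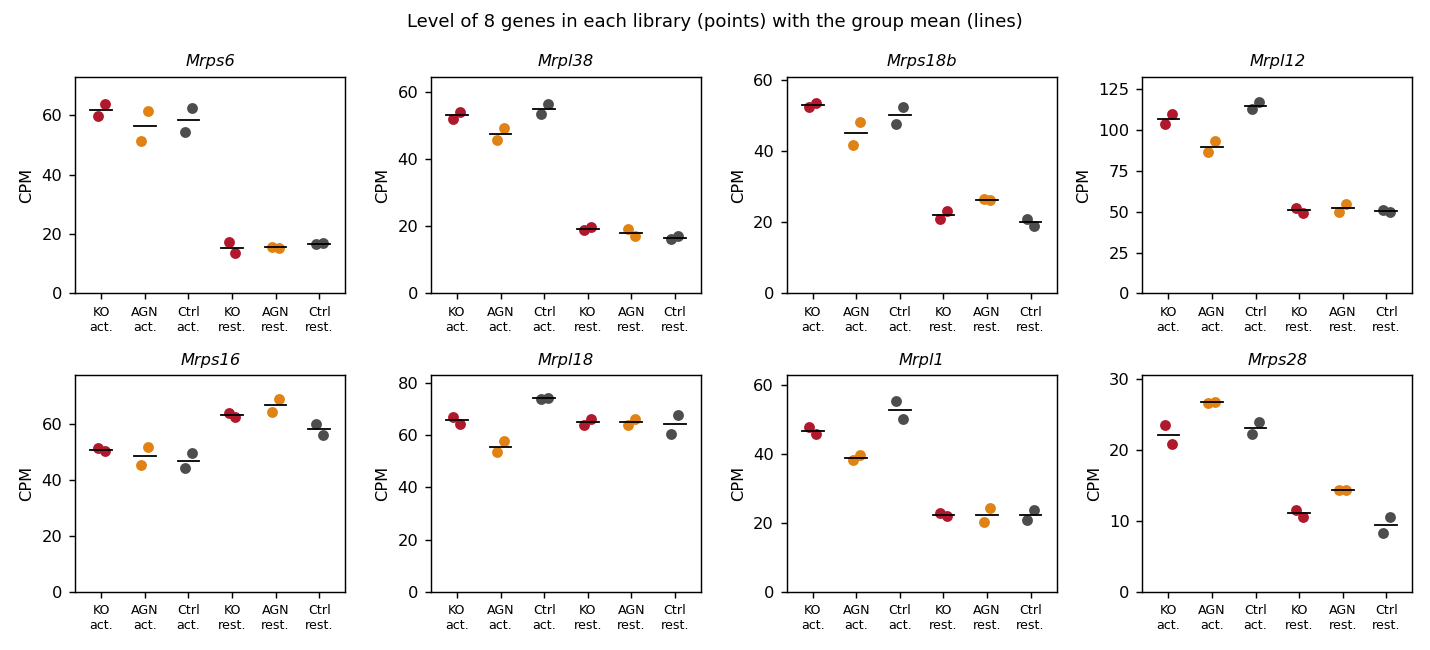
CPM of 8 genes in each of the 12 libraries (points) with the mean of each group of 2 (lines), activated groups on the left of each panel. Mrps6, Mrpl38, Mrps18b, Mrpl12, Mrpl1 and Mrps28 are higher in every activated library of a condition than in its resting libraries, Mrps16 is lower, and Mrpl18 differs in direction between AGN and Ctrl cells.

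Tmed10 KO was compared with Ctrl in each state, to ask whether loss of this cargo receptor changed the gene set. In activated cells 1 gene was higher and 3 were lower, against 10.8% and 8.78% of all genes, with a median log2 fold change of −0.01. At an unadjusted p below 0.05 there were 12 of the 78 genes (15.4%), against 30.9% of all genes. In resting cells 1 was higher and 0 lower, against 2.81% and 4.63% of all genes, with a median of 0.04 and 5 genes (6.41%) at an unadjusted p below 0.05, against 20.1% of all genes. DESeq2 called 0 in each state and direction.

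In activated cells Mrpl34, a small protein of the large subunit, was at 19.9 and 18.3 CPM in KO cells against 22.7 and 25.3 CPM in Ctrl cells (log2 −0.32 ± 0.10 SE, adjusted p = 0.0233). Mrpl33 was at 48.5 and 44.9 CPM in KO cells against 56.0 and 52.7 CPM in Ctrl cells (−0.21, adjusted p = 0.0358). Mrpl18 was at 67.2 and 64.5 CPM in KO cells against 74.1 and 74.3 CPM in Ctrl cells (−0.17, adjusted p = 0.0424). These were small falls without overlap between the libraries. Lower values without overlap were found for 18 of the 78 genes and 26.1% of all genes, and non-overlap was part of the naming rule. Mrpl24, near the exit tunnel, was at 104 and 99.1 CPM in KO cells against 91.4 and 89.5 CPM in Ctrl cells (0.17, adjusted p = 0.0207). In resting cells Mrpl50 was at 23.1 and 28.6 CPM in KO cells against 18.9 and 21.1 CPM in Ctrl cells (0.33, adjusted p = 0.0436). All 5 calls were lost with single libraries left out: that of Mrpl34 without replicate 2 of activated Ctrl or either activated KO library, of Mrpl33 without replicate 1 of activated Ctrl or replicate 2 of activated KO, of Mrpl24 without either activated Ctrl library or replicate 1 of activated KO, of Mrpl18 without any 1 of the KO, activated Ctrl or resting AGN libraries, and of Mrpl50 without either resting Ctrl library or replicate 2 of resting KO. The activation responses of KO and Ctrl cells did not differ for any of the 78 genes by the test (0 higher and 0 lower, against 3.07% and 1.89% of all genes, 6 genes or 7.69% at an unadjusted p below 0.05, against 16.2% of all genes, and 0 by DESeq2). Of the cytosolic ribosomal protein genes, 34 of 81 were higher and 0 lower in activated KO cells, against 10.8% and 8.78% of all genes. The difference between the lists was not tested.

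AGN192403 was compared with vehicle in control-guide cells. In activated cells 23 of 78 genes were lower and 1 higher, against 18.3% and 16.4% of all genes, with a median log2 fold change of −0.10, and −0.01 over all genes. With library totals in place of TMM the counts were 17 lower and 7 higher, with DESeq2 11 lower and 0 higher, and without the 3 libraries that stood apart 16 lower and 1 higher. In resting cells 11 genes were higher and 1 lower, against 11.6% and 13.7% of all genes, with a median of 0.08. With median-ratio size factors these were 10 higher and 3 lower, with DESeq2 5 higher and 0 lower, and without the 3 libraries 11 higher and 2 lower. The share of all genes called higher at rest was thus close to that of the 78 genes (14.1%). The cytosolic ribosomal protein genes had 28 of 81 higher and 4 lower in activated AGN cells, and 13 higher and 2 lower at rest.

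Among the falls in activated cells, Mrpl1 (chromosome 5, 96209493 to 96266727) was at 38.1 and 39.5 CPM in AGN cells against 55.2 and 50.2 CPM in Ctrl cells (log2 −0.44 ± 0.07 SE, adjusted p = 3.61e-05). Mrpl18 (chromosome 17, 12911349 to 12916345) was at 53.6 and 57.7 CPM in AGN cells against 74.1 and 74.3 CPM in Ctrl cells (−0.41 ± 0.06 SE, adjusted p = 5.5e-06). Mrps25, a mitochondria-specific small subunit protein, was at 29.3 and 33.6 CPM in AGN cells against 42.2 and 41.1 CPM in Ctrl cells (−0.40 ± 0.07 SE, adjusted p = 0.000117). In each of these genes both AGN libraries were below both Ctrl libraries. Lower values without overlap were found for 37 of the 78 genes and 32.3% of all genes, and non-overlap was part of the naming rule. Mrpl49 was at 28.4 and 32.8 CPM in AGN cells against 39.4 and 40.9 CPM in Ctrl cells (−0.38). Mrpl12 was at 86.3 and 93.2 CPM in AGN cells against 113 and 117 CPM in Ctrl cells (−0.35). The falls of 9 genes, Mrpl1, Mrpl18, Mrps25, Mrpl49, Mrpl28, Mrpl42, Mrpl12, Mrps11 and Mrpl45, were called under all 19 alternatives. Leaving out replicate 2 of activated Ctrl cells left 13 genes lower, and leaving out replicate 1 of activated AGN cells 14. The exons of Mrps25, Mrpl18, Mrpl12, Mrpl49 and Mrps11 overlap a gene on the other strand. That of Mrpl18 is Tcp1, a cytosolic chaperonin subunit gene, which shares 141 exon bases with it and was at 725 and 769 CPM in activated AGN cells against 867 and 897 CPM in activated Ctrl cells (log2 −0.24). Its part in the Mrpl18 count was not tested. Mrps25 shares 4590 of its 6576 exon bases with Nr2c2. That gene was at 91.5 and 85.1 CPM in activated AGN cells against 90.8 and 88.0 CPM in activated Ctrl cells. The part of Nr2c2 in the Mrps25 count was also not tested.

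Of the 23 falls, 18 were among the 51 large subunit genes (35.3%) and 5 among the 26 small subunit genes (19.2%), against 18.3% of all genes. The medians of the 2 classes were −0.10 and −0.09. Of the 11 rises at rest, 4 were in the large (7.84%) and 7 in the small subunit (26.9%), against 11.6% of all genes. The difference between the classes was not tested. The only rise in activated cells was that of Mrps14, a homologue of bacterial S14, at 57.2 and 59.5 CPM in AGN cells against 50.9 and 53.7 CPM in Ctrl cells (0.16, adjusted p = 0.037), a call lost without replicate 2 of activated AGN cells, without replicate 1 of activated Ctrl cells, without the 3 libraries that stood apart, under DESeq2 and with no expression filter.

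At rest, Mrps28 (chromosome 3, 8802146 to 8923918), related to bacterial S1, was at 14.4 and 14.4 CPM in AGN cells against 8.29 and 10.5 CPM in Ctrl cells (log2 0.59 ± 0.12 SE, adjusted p = 0.000862). Mrpl47, at the exit tunnel, was at 17.5 and 16.9 CPM in AGN cells against 12.1 and 12.3 CPM in Ctrl cells (0.50 ± 0.11 SE, adjusted p = 0.00136). Mrps14 was at 50.3 and 50.8 CPM in AGN cells against 40.5 and 42.9 CPM in Ctrl cells (0.27 ± 0.06 SE, adjusted p = 0.00223). These 3 rises were called under all 19 alternatives. Mrpl23 was at 6.97 and 7.29 CPM in AGN cells against 4.70 and 5.45 CPM in Ctrl cells (0.48), a call lost under DESeq2 and without either resting AGN library or replicate 1 of resting Ctrl. Mrps18b was higher by 0.41, a call lost without replicate 2 of resting Ctrl. Mrps21 was the single gene called lower, at 21.1 and 24.96 CPM in AGN cells against 26.7 and 29.2 CPM in Ctrl cells (−0.27, adjusted p = 0.0366), a call lost under DESeq2, with library totals, with no expression filter, and without replicate 1 of resting AGN or replicate 2 of resting Ctrl cells. The 11 rises at rest became 5 without replicate 2 of resting AGN cells or of resting Ctrl cells, and 6 without replicate 1 of resting AGN cells.

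The AGN and Ctrl activation responses were then compared within 1 model. The AGN minus Ctrl difference was called negative for 16 genes and positive for 1, against 11.1% and 8.62% of all genes. Among the 45 genes with no exon overlap, it was called negative for 7 and positive for 1. The median difference was −0.18 over the 78 genes and −0.02 over all genes. A negative difference can be a smaller rise or a reversal, as for Mrpl18, called higher on activation in Ctrl cells and lower in AGN cells. Neither of these Mrpl18 calls held under all 19 alternatives, while its called difference between responses did. Of the 16, 11 were among the 51 large subunit genes (21.6%) and 5 among the 26 small subunit genes (19.2%). Differences were −0.55 ± 0.12 (SE) for Mrps18b, −0.52 for Mrpl47, −0.48 for Mrps35, −0.46 for Mrpl1, −0.43 for Mrpl49 and −0.43 for Mrpl18. On the opposite strand, Mrps18b shares 638 exon bases with Gm16279, and Mrpl47 shares 452 with Actl6a and 616 with Ndufb5. The part of these genes in the counts was not tested. Mrps18b, Mrpl47 and Mrps35 were higher with AGN192403 at rest, by 0.41, 0.50 and 0.25, while Mrpl1, Mrpl49 and Mrpl18 were at 0.02, 0.05 and 0.02 at rest and fell in activated cells. The single larger response was that of Mrps12 (0.40, adjusted p = 0.0222), at 34.9 and 32.3 CPM in activated AGN cells against 29.99 and 30.5 CPM in activated Ctrl cells, and at 16.9 and 15.1 CPM in resting AGN cells against 18.8 and 19.0 CPM in resting Ctrl cells. Mrps18b, Mrps35, Mrpl18 and Mrpl12 were called under all 19 alternatives. DESeq2 called 4 genes lower and 0 higher, and without the 3 libraries that stood apart 8 were lower and 0 higher. Without replicate 2 of resting AGN cells 9 were lower, and without replicate 2 of activated Ctrl cells 10.

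**Figure D5:**
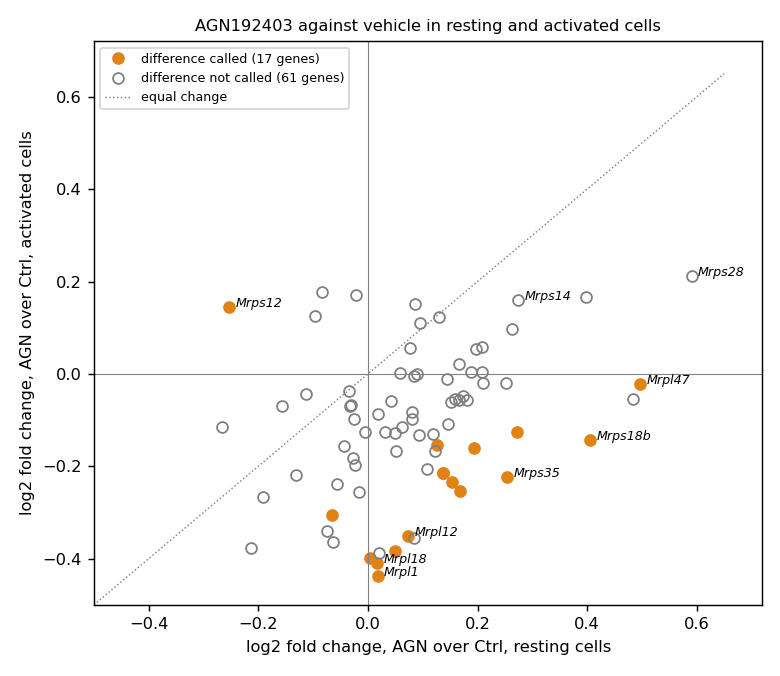
Log2 fold change of AGN over Ctrl cells at rest (horizontal) and after activation (vertical) for the 78 genes. Orange points are the 17 genes whose activation response differed between AGN and Ctrl cells, and the dotted line marks equal change. Most orange points lie below the line, and Mrps12 lies above it.

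Other parts of the mitochondrial translation system were read from lists. Of all genes tested, 37.2% rose on activation in KO cells, 33.9% in AGN cells and 36.4% in Ctrl cells, the shares against which these counts stand, and the lists were not tested. Of 5 tested ribosomal subunit genes with other symbols, 4 rose on activation in each condition, led in Ctrl cells by Ptcd3 (1.35), a pentatricopeptide repeat protein of the small subunit, Chchd1 (0.82) and Dap3 (0.67). In activated cells with AGN192403, Ptcd3 (−0.36) and Dap3 (−0.28) were lower, and 0 were higher, where 18.3% of all genes were lower. Translation factor genes, 15 tested, rose in 9 cases in KO cells, 9 in AGN cells, where 2 fell, and 11 in Ctrl cells, including Tufm (1.15 in Ctrl cells) and Gfm1 (1.15), which encode the elongation factors. In activated AGN cells 4 were lower, among them Gfm1 (−0.30) and Tufm (−0.26), and 0 higher. Of 24 genes for ribosome assembly and rRNA modification, 14 rose and 0 fell in KO cells, 10 rose and 1 fell in AGN cells, and 12 rose and 2 fell in Ctrl cells. They included Fastkd2 (1.15, 0.92 and 1.37) and the rRNA methyltransferase gene Mrm3 (1.12, 1.11 and 1.17). At rest, 7 of the 24 were higher with AGN192403, against 11.6% of all genes, led by Tfb1m (0.69), which methylates the small rRNA, Trmt61b (0.53) and Nsun4 (0.35).

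The mRNAs that the mitochondrial ribosome translates were partly covered, as 7 of 13 mitochondrially encoded mRNAs were tested. The other 6 (mt-Co2, mt-Atp8, mt-Atp6, mt-Co3, mt-Nd3 and mt-Nd4l) are listed at 0 in all 12 libraries, while mt-Co1 averaged 4368 CPM. The 7 tested mRNAs had a median activation change of 0.31 in KO, 0.02 in AGN and 0.11 in Ctrl cells. The KO minus Ctrl difference of responses was called positive for 4 and negative for 0 of the 7, against 3.07% and 1.89% of all genes. In activated KO cells 5 of 7 were higher than in Ctrl cells and 0 lower, against 10.8% and 8.78% of all genes, with mt-Nd2 at 0.23 and mt-Nd1 at 0.22. In resting KO cells 0 were called by edgeR, with a median of −0.08 and 2 at an unadjusted p below 0.05. With AGN192403, 1 was higher and 3 were lower in activated cells, against 16.4% and 18.3% of all genes. At rest 3 were higher and 0 lower with AGN192403, against 11.6% and 13.7% of all genes. Of 7 mitochondrial transcription genes, 0 were called by edgeR in any comparison of KO or AGN with Ctrl cells and 0 had an unadjusted p below 0.05, with median differences of −0.08 to 0.08. On activation 3 of these 7 genes rose and 1 fell in KO cells, against 37.2% and 36.5% of all genes. In AGN cells 2 rose and 1 fell, against 33.9% and 36.1%, and in Ctrl cells 2 rose and 1 fell, against 36.4% and 37.4%. The medians were −0.01, 0.08 and 0.01 in KO, AGN and Ctrl cells. The RNA polymerase gene Polrmt rose by 0.61, 0.69 and 0.65 in KO, AGN and Ctrl cells.

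Among regulators of mitochondrial gene expression, the growth regulator Myc rose on activation to 498 and 500 CPM in KO cells against 219 and 225 CPM in resting KO cells. It was at 484 and 495 CPM in activated AGN cells against 193 and 191 CPM in resting AGN cells, and at 500 and 524 CPM in activated Ctrl cells against 211 and 228 CPM in resting Ctrl cells. The coactivator gene Pprc1 rose by 1.25, 1.14 and 1.39 in KO, AGN and Ctrl cells. On activation 6 of the 12 regulators tested rose and 2 fell in KO cells, against 37.2% and 36.5% of all genes. In AGN cells 6 rose and 4 fell, against 33.9% and 36.1%, and in Ctrl cells 7 rose and 2 fell, against 36.4% and 37.4%. The medians of the 12 were 0.11, 0.24 and 0.24 in KO, AGN and Ctrl cells. Atf5, a stress-response factor gene, was at 34.0 and 33.1 CPM in activated KO cells and 53.1 and 59.4 CPM in activated AGN cells, against 14.3 and 15.6 CPM in activated Ctrl cells. At rest it was at 9.81 and 8.62 CPM in KO cells and 21.2 and 20.1 CPM in AGN cells, against 6.99 and 6.51 CPM in Ctrl cells. Ddit3 was higher in activated cells by 0.71 in KO and 1.28 with AGN192403. Of the 12 regulators tested, 3 were higher and 2 lower in activated KO cells, against 10.8% and 8.78% of all genes. In activated AGN cells 3 were higher and 4 lower, against 16.4% and 18.3% of all genes. At rest 3 were higher and 0 lower in KO cells, against 2.81% and 4.63% of all genes. In resting AGN cells 3 were higher and 3 lower, against 11.6% and 13.7% of all genes. Any link of these genes to the changes in ribosomal protein genes was not tested.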

How the data were processed

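Per the labels, the authors aligned single reads of stranded, polyadenylated RNA libraries to GRCm38 (mm10) using STAR 2.6.0c, and HTSeq gave the deposited counts, which are whole numbers with no normalization. A different STAR release appears in the paper's methods. Of 46603 identifiers, 46005 had a symbol, and the others held 0.0709% of counts. Genes kept by filterByExpr over the 6 groups (13167, with 99.91% of counts) were fitted with edgeR 4.0.16 (R 4.3.3; TMM factors 0.976 to 1.02, quasi-likelihood, all 12 libraries, 6 residual degrees of freedom, common biological coefficient of variation 0.0306), with Benjamini-Hochberg adjustment over all genes and a threshold of 0.05. Totals of 9089350 to 16481840 counts set the precision. Exon lengths and overlaps came from the GENCODE annotation of GRCm38, promoters from RefSeq.

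Named were, in each comparison of 2 groups, up to 4 called genes with the largest rise and 4 with the largest fall and no overlap between libraries, up to 6 genes by size of a called difference between responses, the 4 highest and 3 lowest levels per kb, 11 genes of known role, and up to 3 called genes per other list. Genes named beyond this, and the 3 libraries left out, were chosen after their values were seen. Promoters printed are of named genes with few annotated exon bases and were chosen after their values were seen. The members, lists and tests were chosen with earlier results of these data known. Alternatives were median-ratio size factors, library totals, no expression filter, DESeq2 1.42.0, only the libraries of a comparison, a replicate block, each library left out, and the 3 libraries left out.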

Additional observations from a re-analysis of the deposited data

Results flagged for a closer look

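The activation response of 17 of the 78 genes differed between AGN and Ctrl cells by a test of the difference itself (edgeR quasi-likelihood, adjusted p below 0.05 over all genes). The difference, AGN minus Ctrl response on the log2 scale, was −0.55 for Mrps18b, −0.52 for Mrpl47, −0.48 for Mrps35, −0.46 for Mrpl1, −0.43 for Mrpl49, −0.43 for Mrpl18, −0.43 for Mrpl12 and −0.42 for Mrps5. It was −0.40 for Mrps25, −0.40 for Mrps27, −0.39 for Mrpl11, −0.35 for Mrpl37, −0.35 for Mrpl46, −0.35 for Mrpl20, −0.28 for Mrpl3 and −0.24 for Mrpl45. Mrps12 had the opposite sign, at 0.40, and lost its call under DESeq2, with no expression filter, without the 3 libraries that stood apart, and without any 1 of replicate 1 of activated AGN, replicate 2 of resting AGN, replicate 1 of activated Ctrl and replicate 2 of resting Ctrl cells.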

How the results depend on the processing

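Counts of genes called moved by over 1.5 times in these cases, and no named change reversed its sign under the alternatives run. With DESeq2, KO against Ctrl cells gave 0 higher and 0 lower in activated cells and 0 higher at rest, AGN against Ctrl cells gave 0 higher and 11 lower in activated cells and 5 higher and 0 lower at rest, and the difference between AGN and Ctrl responses gave 0 higher and 4 lower. Without an expression filter, activated KO cells had 2 higher and 1 lower, activated AGN cells 0 higher, resting AGN cells 0 lower, activation of KO cells 1 lower, the KO difference of responses 1 higher and the AGN difference 0 higher. With library totals, activated AGN cells had 7 higher, resting AGN cells 0 lower, and activation of Ctrl cells 4 lower. With median-ratio size factors, resting AGN cells had 3 lower. With only the libraries of a comparison, resting KO cells had 0 higher and 1 lower, and activated AGN cells 2 higher. Without the 3 libraries that stood apart, resting KO cells had 0 higher, resting AGN cells 2 lower, activation of Ctrl cells 1 lower, and the AGN difference of responses 0 higher and 8 lower. The cause was not tested. The median of all genes moved by less than 0.1 on the log2 scale between scalings.

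Replicate numbers were not taken as pairs, since no label gives them a shared source. Over 15 pairs of groups, 3 correlations of replicate differences were above 0.1. These were 0.213 for activated AGN and activated Ctrl, 0.239 for activated AGN and resting Ctrl, and 0.189 for activated and resting Ctrl cells, the 3 groups whose replicate 1 stood apart. A replicate block gave 2 genes higher in activated KO cells and 2 lower in resting AGN cells, with the other counts within 1.5 times.

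With 1 library left out, where a lone library is assumed to vary like the other groups, the ranges of genes called higher and lower were 0 to 1 and 1 to 4 for activated KO cells, 0 to 1 and 0 to 0 for resting KO cells, 0 to 4 and 13 to 24 for activated AGN cells, and 5 to 13 and 0 to 2 for resting AGN cells. On activation they were 49 to 59 and 2 to 4 in KO cells, 46 to 55 and 3 to 7 in AGN cells, and 56 to 61 and 2 to 2 in Ctrl cells. For the differences of responses they were 0 to 1 and 0 to 1 for KO and 0 to 2 and 9 to 21 for AGN. The rises at rest with AGN192403 were 5 without replicate 2 of resting AGN or of resting Ctrl cells and 6 without replicate 1 of resting AGN cells. The negative AGN minus Ctrl differences of responses were 9 without replicate 2 of resting AGN cells and 10 without replicate 2 of activated Ctrl cells. Of 42 named changes, 26 kept their call under all 19 alternatives, and of their 798 values over these alternatives 739 were on the same side of the threshold and 59 lost the call. Mrpl53 and Mrps36 rest on 154 and 501 counts over all libraries.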
